A study of Homo sapiens with 22 samples.

Results

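The unfolded protein and integrated stress response was followed through 36 genes, found by symbol among the 35237 genes of a table of raw RNA counts. The members were kept in 2 branches: 19 genes of the ATF4 and CHOP amino-acid branch, and 17 genes of the endoplasmic reticulum (ER) branch, which holds the ER chaperones, XBP1, ATF6 and the stress sensors. Of the 36, 35 had enough counts to be tested, and FGF21 did not. The rule used symbols and no measured value.

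The 22 libraries came from GIMEN and SK-N-AS, neuroblastoma cell lines of human origin that the labels call mesenchymal. Untreated SK-N-AS cells (n = 4) grew in DMEM with 10% fetal bovine serum. The S1D4 cells (n = 4) had spent 4 days in 5 µM PP121 in DMEM with 1% serum. The S2D4 and S2D30 cells (n = 4 each) went from that first stage into 5 µM PP121 with 100 nM bufalin in Neurobasal medium with B27 supplement, for 4 or 30 days. Untreated GIMEN cells (n = 3) grew in RPMI with 10% serum, and the GIMEN D30 cells (n = 3) had 2.5 µM PP121 with 10 nM bufalin in RPMI with 1% serum for 30 days. PP121 is a dual inhibitor of tyrosine kinases and PI3K-family kinases, and bufalin is a cardiac glycoside that inhibits the sodium pump. The design compares untreated cells with cells differentiated by the compounds at several times. Compound, serum and medium changed together in these groups and cannot be told apart, and no group had the new medium without the compounds. Doses, medium and the first stage also differ between the lines.

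The ER folds secreted and membrane proteins, and unfolded protein there activates the sensors IRE1, PERK and ATF6. IRE1 splices XBP1 RNA, and spliced XBP1 and cleaved ATF6 raise chaperone and degradation genes. PERK and its sister kinases phosphorylate eIF2α, which lowers translation in general and raises translation of ATF4, a transcription factor for amino acid supply, CHOP and feedback genes. Gene counts show neither XBP1 splicing nor ATF6 cleavage, ATF4 protein or eIF2α phosphorylation.

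Libraries held 16456484 to 37506800 counts. Replicate 4 of S2D4 stood apart: its log2 levels correlated with those of the other S2D4 libraries at 0.967 to 0.969, against 0.990 among the other 3. For the members whose values or calls depended on it most, values without it are also given. Replicates 1 and 2 of S1D4 also differed from replicates 3 and 4 in several members, as the values show. All 8 mesenchymal markers passed 1 CPM (counts per 1000000) in every SK-N-AS library, and 7 of 8 did in every GIMEN library, where NOTCH2 was at or under 3 counts without treatment. Their summed level was 798 to 1335 CPM in untreated SK-N-AS and 3367 to 4032 CPM in S2D30, against 7439 to 7746 and 4352 to 5482 CPM in GIMEN. Of 7 adrenergic markers, 6 passed 1 CPM in every untreated and every S2D30 library of SK-N-AS and 2 in every untreated GIMEN library. The adrenergic sum went from 1044 to 1130 CPM in untreated SK-N-AS to 170.2 to 216 CPM in S2D30, and from 409.7 to 434.6 CPM to 234 to 277 CPM in GIMEN, so untreated SK-N-AS held both kinds of marker. The sum of the 3 proliferation markers went from 471 to 677 CPM in untreated SK-N-AS to 3.07 to 4.71 CPM in S2D30, and from 996 to 1014 CPM to 14.9 to 17.4 CPM in GIMEN. Among 4 markers of plasma cells, which are rich in ER, JCHAIN and TNFRSF17 were at or under 3 counts in S2D4, S2D30 and GIMEN D30. However, 1 of the 4 passed 1 CPM in every library of these groups. The sum of the 4 was 23.5 to 28.6 CPM in untreated SK-N-AS, 8.68 to 17.6 in S2D4 and 3.25 to 5.48 in S2D30. In GIMEN it was 52.9 to 55.0 CPM untreated and 18.5 to 25.2 at D30.

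The upstream sequence of the members was searched for known stress elements, and the matches are shown because most of the ER branch rose at S2D4, as described after them. RefSeq promoters (GRCh38.p14, from 250 bases before to 50 after the start) were found for 34 of the 36 members, and not for PSPH and SHMT2. The ER stress element, CCAAT and CCACG with 9 bases between, was in the promoters of 5 ER-branch members and 0.0769% of all 35116 promoters. ER stress element II, ATTGG and CCACG with 1 base between, was in 3 more ER-branch members and 0.0541% of promoters. Both strands were searched. The windows run 5′ to 3′ in the direction of the gene, with the match in capitals; a match read from the other strand appears as its reverse complement. Those with the ER stress element were chr9:125241366-125241434 (minus strand), chr12:103930191-103930259 and chr12:103930296-103930364 (plus strand), chr2:10812828-10812896 (minus), chr22:49918529-49918597 (plus) and chr22:28800578-28800646 (minus), in this order.
HSPA5: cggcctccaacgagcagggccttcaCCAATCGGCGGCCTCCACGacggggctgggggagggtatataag
HSP90B1 distal: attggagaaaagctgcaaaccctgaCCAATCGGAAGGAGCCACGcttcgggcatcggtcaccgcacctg
HSP90B1 proximal: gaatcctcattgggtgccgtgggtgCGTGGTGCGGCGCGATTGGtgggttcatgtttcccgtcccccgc
PDIA6: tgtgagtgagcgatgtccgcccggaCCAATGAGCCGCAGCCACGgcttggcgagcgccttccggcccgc
CRELD2: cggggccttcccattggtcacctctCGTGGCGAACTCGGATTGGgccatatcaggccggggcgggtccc
XBP1: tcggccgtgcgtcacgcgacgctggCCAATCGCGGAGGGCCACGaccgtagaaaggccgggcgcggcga
The matches began between 52 bases (XBP1) and 194 bases (HSP90B1) before the start.

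Windows with ER stress element II were chr16:56932000-56932060 and chr22:21642089-21642149 (plus strand) and chr11:119057355-119057415 and chr11:119057249-119057309 (minus strand). HYOU1 held the element at 2 places, beginning 185 and 79 bases before the start.
HERPUD1: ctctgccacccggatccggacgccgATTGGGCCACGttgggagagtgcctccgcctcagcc
SDF2L1: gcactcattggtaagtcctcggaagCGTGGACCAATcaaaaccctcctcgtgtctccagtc
HYOU1 distal: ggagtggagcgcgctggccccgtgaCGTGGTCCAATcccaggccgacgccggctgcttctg
HYOU1 proximal: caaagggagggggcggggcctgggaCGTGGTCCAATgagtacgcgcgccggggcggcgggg
The distal HYOU1 match overlaps an unfolded protein response element, TGACGTGG, which 1 member and 0.729% of promoters held. The composite element of ATF4 and C/EBP factors, TGATGNAAN, was in ASNS, CHAC1, SLC3A2, FGF21 and HERPUD1 and in 3.61% of promoters. At S2D30, ASNS and CHAC1 fell, SLC3A2 and HERPUD1 rose, and FGF21 had too few counts to be tested. The SLC3A2 match lay after the start. ASNS (chr7:97872443-97872501, minus strand) and CHAC1 (chr15:40953236-40953294, plus strand), both described with the ATF4 branch, are shown.
ASNS: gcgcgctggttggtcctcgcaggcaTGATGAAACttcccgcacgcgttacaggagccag
CHAC1: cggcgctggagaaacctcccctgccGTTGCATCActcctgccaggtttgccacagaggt
A match is a description of the letters, and binding was not measured.

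At S2D4, 15 of the 17 ER-branch members rose and 0 fell, with a median log2 fold change of 0.89, where 30.9% of all tested genes rose and 32.2% fell with a median of -0.02. Of the 18 tested ATF4-branch members, 9 rose and 6 fell (median 0.60). Changes were called at an adjusted p under 0.05 in edgeR's quasi-likelihood test over all tested genes, and these p-values measure only the spread between these libraries, since the labels do not say that replicates were separate cultures. After stage 1 alone, 7 ER-branch members rose and 4 fell (median 0.22), and 7 ATF4-branch members rose and 6 fell (median -0.03), against 17.6% and 22.4% of all genes. At S2D30, 11 ER-branch members rose and 1 fell (median 0.74), and 9 ATF4-branch members rose and 7 fell (median 0.50), against 33.8% and 36.5% of all genes. In GIMEN D30, 9 ER-branch members rose and 7 fell (median 0.47), and 8 ATF4-branch members rose and 8 fell (median 0.00), against 35.5% and 36% of all genes. The 3 SK-N-AS comparisons share their untreated libraries. In every treated group the proliferation sum was below the untreated range, and the mesenchymal sum was above it in SK-N-AS and below it in GIMEN. The adrenergic sum overlapped that range at S1D4 and was below it in the other treated groups, and the part of these markers in the changes was not tested; in bulk RNA, fewer cells of a type and less RNA per cell cannot be told apart. Without replicate 4 the S2D4 counts were the same, and the 4 ER-branch falls after stage 1 came to between 1 and 4 when single libraries were left out. In GIMEN D30, leaving out single libraries gave 6 to 7 ATF4-branch falls in place of 8, and 6 to 7 ER-branch falls.

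**Figure D1:**
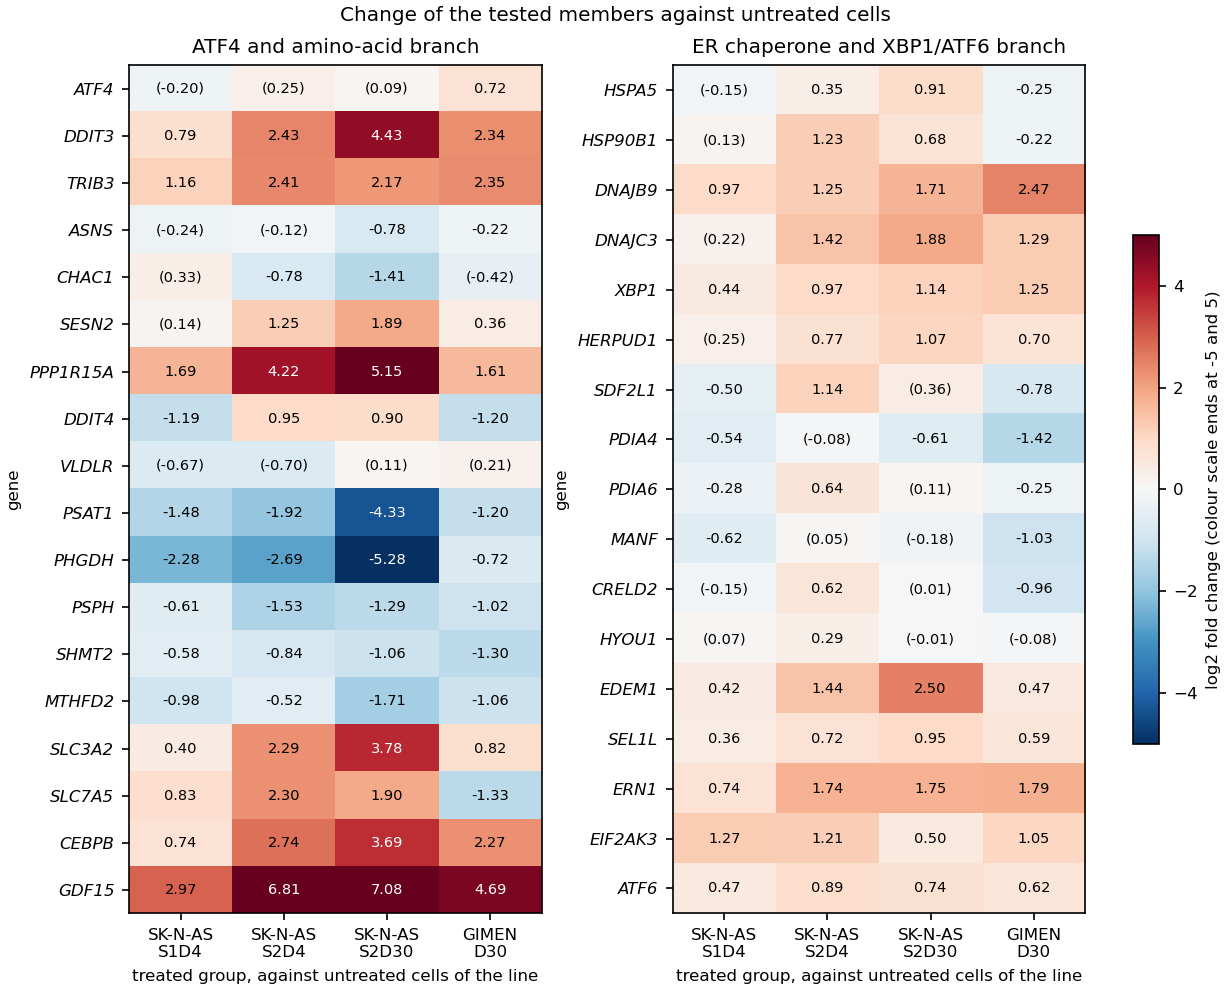
Log2 fold change of the 35 tested members against untreated cells of the same line, with the ATF4 branch on the left and the ER branch on the right; colour runs from blue (lower) to red (higher) and stops at -5 and 5. Values in parentheses did not pass the test. PHGDH and PSAT1 are lower in all 4 columns, GDF15 and PPP1R15A higher, and PDIA4, MANF and CRELD2 are blue in GIMEN and also at S1D4.

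The 8 members with a match to either ER stress element in the promoter window searched all rose at S2D4 (median 0.70). So did 7 of the 9 ER-branch members without a match there (median 1.21). Exact matches in that window alone were counted, so an element with other letters or farther from the start would be missed. In GIMEN D30, 2 of the 8 rose and 5 fell (median -0.24), while 7 of the 9 others rose and 2 fell (median 0.62). At S2D30, 4 of the 8 rose and 0 fell (median 0.52), and 7 of the 9 others rose and 1 fell (median 0.95). Among all tested genes, 30.9% rose and 32.2% fell at S2D4, 33.8% and 36.5% at S2D30, and 35.5% and 36% in GIMEN D30. The sets were compared only as counts, and whether they differ was not tested.

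ATF4 RNA itself did not pass the test in any SK-N-AS comparison with every library included. It was at 356, 323, 339 and 238 CPM in untreated cells, 350.2, 330.4, 221 and 216 in S1D4, 332, 324, 322 and 559 in S2D4 and 339, 319, 352 and 364 in S2D30. The groups overlapped, with replicate 4 of S2D4 the single high library. The log2 fold changes were -0.20 (SE 0.19), 0.25 (SE 0.19) and 0.09 (SE 0.19) against untreated cells, and the S2D4 value was 0.02 (adjusted p = 0.935) without that library. The step from S1D4 to S2D4 was 0.45 (adjusted p = 0.0599). That step passed without S1D4 replicate 1 or 2 or S2D4 replicate 2 or 3 (0.53 to 0.58). Without S2D4 replicate 4 the step was 0.22 (adjusted p = 0.269). In GIMEN, ATF4 was at 223, 228 and 225 CPM untreated and 349, 388 and 398 at D30, without overlap, a rise of 0.72 (SE 0.07, adjusted p = 1.82e-06). The change differed between the lines by -0.65 (SE 0.17, adjusted p = 0.00452), SK-N-AS minus GIMEN. With all 22 libraries in 1 model that difference was -0.62 (adjusted p = 0.0615) and no longer passed.

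DDIT3, which encodes CHOP, rose at every step. It was at 6.28, 7.04, 5.49 and 4.92 CPM in the untreated SK-N-AS libraries, 12.8, 10.9, 7.68 and 10.5 in S1D4, 31.1, 33.5, 32.6 and 34.2 in S2D4 and 116, 144, 152 and 112 in S2D30. Each group lay above the one before it without overlap. The log2 fold changes against untreated cells were 0.79 (SE 0.15, adjusted p = 0.000621), 2.43 (SE 0.15, adjusted p = 1.06e-09) and 4.43 (SE 0.15, adjusted p = 1.02e-12), the last a 21.6-fold rise. From S2D4 to S2D30 it rose again (3.99-fold, adjusted p = 1.28e-08). GIMEN went from 12.8, 12.9 and 13.3 to 78.6, 65.5 and 56.7 CPM, a rise of 2.34 (SE 0.11, adjusted p = 8.84e-09). The rise was larger in SK-N-AS by 2.08 (SE 0.20, adjusted p = 2.63e-07).

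CEBPB encodes C/EBPβ, a dimer partner of CHOP and ATF4. Its levels were 69.99, 58.9, 56.8 and 38.3 CPM without treatment in SK-N-AS, 104, 98.3, 93.5 and 85.9 in S1D4, 389.5, 359, 364 and 422 in S2D4 and 689.9, 765, 780.3 and 735 in S2D30. As with DDIT3, the 4 groups rose in order without overlap. The fold changes against untreated cells were 0.74 (SE 0.14, adjusted p = 0.000468), 2.74 (SE 0.14, adjusted p = 1.47e-10) and 3.69 (SE 0.14, adjusted p = 2.93e-12) on the log2 scale. GIMEN rose from 26.6, 24.5 and 26.1 to 134, 125 and 121 CPM, 2.27 (SE 0.06, adjusted p = 1.47e-10), so the 30-day change was larger in SK-N-AS by 1.40 (SE 0.21, adjusted p = 3.70e-05). An antisense gene overlaps 11.8% of the CEBPB exons, and whether counting used strand is not stated.

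TRIB3, a pseudokinase that feeds back on the pathway, rose in both lines. It stood at 43.8, 40.9, 34.8 and 27.9 CPM before treatment in SK-N-AS, 98.2, 93.04, 72.6 and 72.8 in S1D4, 188, 186, 199 and 229.7 in S2D4 and 160.4, 175, 177 and 170.1 in S2D30. Every treated library was above every untreated one, and the highest level was at S2D4. Relative to untreated cells, the log2 fold changes were 1.16 (SE 0.13, adjusted p = 6.68e-06), 2.41 (SE 0.13, adjusted p = 4.42e-10) and 2.17 (SE 0.13, adjusted p = 5.85e-10). GIMEN went from 13.8, 16.7 and 15.5 to 81.3, 76.3 and 80.9 CPM, 2.35 (SE 0.08, adjusted p = 5.85e-10), and the lines differed by -0.19 (SE 0.18, adjusted p = 0.407), which did not pass.

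PPP1R15A, or GADD34, brings a phosphatase to eIF2α and so restores translation. Its levels were 29.5, 26.7, 21.4 and 17.7 CPM in the untreated SK-N-AS libraries, 76.1, 73.7, 82.6 and 80.8 in S1D4, 405, 415, 445 and 556 in S2D4 and 839, 905, 934 and 802 in S2D30. The groups did not overlap and rose in order. On the log2 scale the differences from untreated cells were 1.69 (SE 0.14, adjusted p = 2.72e-07), 4.22 (SE 0.14, adjusted p = 2.82e-12) and 5.15 (SE 0.14, adjusted p = 1.63e-13), the last a 35.5-fold rise. In GIMEN it went from 39.5, 45.1 and 44.7 to 159, 116 and 126 CPM, 1.61 (SE 0.11, adjusted p = 1.29e-07). The line difference of 3.52 (SE 0.21, adjusted p = 1.54e-09) was the largest positive one among the members.

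SESN2 and DDIT4 both encode proteins that restrain mTORC1, a kinase complex that drives growth. SESN2 was at 13.1, 11.8, 14.5 and 11.4 CPM without treatment in SK-N-AS, 17.6, 15.5, 11.98 and 11.8 in S1D4, 37.2, 33.5, 36.6 and 16.5 in S2D4 and 47.6, 51.1, 49.2 and 45.6 in S2D30. It rose at S2D4, by 1.25 (SE 0.20, adjusted p = 5.48e-05), and at S2D30, by 1.89 (SE 0.20, adjusted p = 3.97e-07), though replicate 4 of S2D4 reached less than any other S2D4 library. Without that library the S2D4 rise was 1.46. In GIMEN SESN2 went from 19.03, 19.8 and 17.3 to 26.5, 25.004 and 22.1 CPM, 0.36 (SE 0.10, adjusted p = 0.00499), a smaller rise than in SK-N-AS by 1.51 (SE 0.15, adjusted p = 3.16e-07). 

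DDIT4, which encodes REDD1, fell first and rose later in SK-N-AS. It was at 42.1, 43.7, 42.3 and 40.8 CPM untreated, 19.4, 21.5, 17.1 and 17.6 in S1D4, 68.4, 74.4, 75.6 and 115 in S2D4 and 69.8, 94.8, 97.2 and 61.6 in S2D30. All S1D4 libraries lay below the untreated ones, and all S2D4 and S2D30 libraries above them. In the order of these groups, the log2 fold changes were -1.19 (SE 0.16, adjusted p = 3.55e-05), 0.95 (SE 0.16, adjusted p = 8.43e-05) and 0.90 (SE 0.16, adjusted p = 0.000106). The S2D4 rise was 0.75 without the high replicate 4. In GIMEN it fell from 38.8, 39.5 and 38.8 to 17.6, 16.9 and 17.3 CPM, -1.20 (SE 0.07, adjusted p = 5.39e-08), and the lines differed by 2.09 (SE 0.18, adjusted p = 8.32e-08). Genes on the other strand overlap 48.5% of the DDIT4 exons.

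CHAC1, a glutathione-degrading enzyme and a direct ATF4 target, fell at S2D4 and S2D30, where DDIT3 rose. Its levels were 6.999, 6.25, 6.63 and 5.07 CPM before treatment in SK-N-AS, 10.4, 12.1, 5.19 and 4.43 in S1D4, 3.12, 2.55, 3.91 and 5.25 in S2D4 and 2.76, 2.15, 2.08 and 2.61 in S2D30. Replicates 1 and 2 of S1D4 were above the untreated libraries and replicates 3 and 4 were not; only the S2D30 libraries were clear of the untreated ones, below them. The log2 fold changes were 0.33 (SE 0.29, adjusted p = 0.38), -0.78 (SE 0.29, adjusted p = 0.0293) and -1.41 (SE 0.30, adjusted p = 0.000532). The S2D4 call was lost when any one of 4 single libraries was left out (untreated replicate 1, -0.68, adjusted p = 0.0765, or 3, -0.74, 0.0584, or S2D4 replicate 1, -0.70, 0.0747, or 2, -0.64, 0.0878). GIMEN stood at 2.32, 3.24 and 2.77 and then 1.82, 2.48 and 2.06 CPM, overlapping groups, -0.42 (SE 0.25, adjusted p = 0.144). The lines differed by -1.01 (SE 0.30, adjusted p = 0.0102), but by -0.98 (adjusted p = 0.0774) with all 22 libraries in 1 model.

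The amino acid transporter subunits separated the lines. SLC3A2 encodes the heavy chain shared by several exchangers, and SLC7A5 encodes LAT1, the light chain that carries leucine and other large neutral amino acids. SLC3A2 was at 68.1, 66.8, 58.2 and 49.9 CPM in the untreated SK-N-AS libraries, 83.9, 84.2, 81.4 and 76.9 in S1D4, 256, 269, 279 and 415 in S2D4 and 873, 765, 824 and 962 in S2D30. The groups rose in order without overlap. Relative to untreated cells, the log2 fold changes were 0.40 (SE 0.14, adjusted p = 0.0326), 2.29 (SE 0.14, adjusted p = 1.22e-09) and 3.78 (SE 0.14, adjusted p = 3.08e-12). The small S1D4 rise was not called when any one of 5 libraries was left out (untreated replicate 3 or 4, or S1D4 replicate 1, 2 or 3), with values of 0.32 to 0.40. GIMEN rose from 109, 122 and 124 to 243, 197 and 197 CPM, 0.82 (SE 0.09, adjusted p = 6.11e-06), less than SK-N-AS by 2.94 (SE 0.17, adjusted p = 9.89e-10).

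SLC7A5 was at 48.002, 46.9, 39.1 and 40.6 CPM without treatment in SK-N-AS, 79.4, 84.1, 73.8 and 78.4 in S1D4, 195, 193, 222 and 274 in S2D4 and 170.1, 163, 156 and 179 in S2D30. It peaked at S2D4, and all treated libraries were above all untreated ones. On the log2 scale the differences from untreated cells were 0.83 (SE 0.11, adjusted p = 1.86e-05), 2.30 (SE 0.11, adjusted p = 5.56e-11) and 1.90 (SE 0.11, adjusted p = 1.78e-10). In GIMEN the opposite was measured: 137, 148 and 149 CPM untreated and 63.9, 62.8 and 48.8 at D30, a change of -1.33 (SE 0.09, adjusted p = 1.59e-07). The line difference was 3.22 (SE 0.15, adjusted p = 6.04e-11).

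All 6 amino acid and one-carbon enzymes fell at S2D30 and in GIMEN D30, and 5 fell in S1D4 and in S2D4, ASNS being the exception. The GIMEN calls of PHGDH and ASNS depended on single libraries, as given below. Falls were called in 22.4% of all tested genes at S1D4, 32.2% at S2D4, 36.5% at S2D30 and 36% in GIMEN D30. PHGDH, the first enzyme of serine synthesis, was at 57.4, 51.7, 51.4 and 39.3 CPM before treatment in SK-N-AS, 16.03, 16.8, 4.98 and 4.12 in S1D4, 7.08, 7.001, 8.90 and 8.72 in S2D4 and 1.05, 0.614, 1.22 and 2.30 in S2D30. All treated libraries lay below all untreated ones, with replicates 1 and 2 of S1D4 above replicates 3 and 4. In the order of these groups, the log2 fold changes were -2.28 (SE 0.37, adjusted p = 0.000176), -2.69 (SE 0.37, adjusted p = 1.44e-05) and -5.28 (SE 0.44, adjusted p = 2.59e-08), the last a 38.9-fold drop. GIMEN started low, at 2.11, 3.09 and 4.01 CPM, and reached 1.53, 2.28 and 1.86. These groups overlapped, and the change of -0.72 (SE 0.29, adjusted p = 0.043) was not called without any one of 4 libraries (untreated replicate 2 or 3, or D30 replicate 1 or 3), with values of -0.72 to -0.50. The line difference was -4.57 (SE 0.44, adjusted p = 4.23e-07).

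PSAT1, the next enzyme of serine synthesis, also fell in every treated group. It was at 45.4, 42.6, 43.9 and 40.1 CPM in the untreated SK-N-AS libraries, 19.6, 19.7, 11.5 and 11.8 in S1D4, 13.7, 12.97, 14.03 and 5.93 in S2D4 and 1.89, 1.84, 2.31 and 2.69 in S2D30. The S2D30 libraries lay below all others, and replicate 4 was the lowest of S2D4. The log2 fold changes were -1.48 (SE 0.23, adjusted p = 0.000114), -1.92 (SE 0.23, adjusted p = 2.96e-06) and -4.33 (SE 0.26, adjusted p = 5.45e-10), with -1.70 at S2D4 without replicate 4. GIMEN fell from 30.3, 31.8 and 33.7 to 14.9, 14.3 and 13.2 CPM, -1.20 (SE 0.09, adjusted p = 2.44e-07), and the line difference was -3.14 (SE 0.17, adjusted p = 2.74e-10). PSPH, which completes serine synthesis, fell in both lines: 29.3 to 36.4 CPM in untreated SK-N-AS against 13.1 to 15.4 in S2D30, and 35.6 to 37.2 against 18.1 to 18.7 in GIMEN. Its log2 fold changes were -1.29 (SE 0.15, adjusted p = 1.12e-06) and -1.02 (SE 0.07, adjusted p = 2.42e-07), with a line difference of -0.29 (SE 0.14, adjusted p = 0.0938) that did not pass.

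SHMT2 and MTHFD2 carry one-carbon units from serine in mitochondria. In SK-N-AS, SHMT2 ranged over 81.6 to 103 CPM without treatment, 55.8 to 72.2 in S1D4, 37.6 to 61.4 in S2D4 and 44.6 to 47.1 in S2D30, and it fell in each treated group, by -1.06 (SE 0.14, adjusted p = 3.39e-06) at S2D30. MTHFD2 fell to 23.9 to 28.6 CPM in S2D30 from 79.6 to 87.3 untreated, -1.71 (SE 0.15, adjusted p = 5.30e-08). It was the one enzyme higher in S2D4 than in S1D4, by 0.46 (SE 0.15, adjusted p = 0.0176), with replicates 1 and 2 of S1D4 close to S2D4. That difference was 0.36 (adjusted p = 0.0642) and 0.33 (adjusted p = 0.0594) without S1D4 replicate 3 or 4. In GIMEN the falls were -1.30 (SE 0.08, adjusted p = 6.26e-08) for SHMT2 and -1.06 (SE 0.06, adjusted p = 3.40e-08) for MTHFD2. Genes on the other strand overlap 15.1% of SHMT2 and 36.3% of MTHFD2 exons.

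ASNS, which makes asparagine and carries the composite element shown above, passed the test only at S2D30 among the SK-N-AS groups against untreated cells. Its levels were 43.9, 39.9, 42.996 and 34.7 CPM before treatment in SK-N-AS, 41.1, 41.7, 28.7 and 27.5 in S1D4, 43.6, 41.8, 38.8 and 28.03 in S2D4 and 25.5, 24.2, 22.1 and 24.7 in S2D30. Only the S2D30 libraries were clear of the untreated ones, and the changes were -0.24 (SE 0.15, adjusted p = 0.227), -0.12 (SE 0.15, adjusted p = 0.51) and -0.78 (SE 0.15, adjusted p = 0.00028). In GIMEN the groups overlapped, and the fall of -0.22 (SE 0.08, adjusted p = 0.0368) was not called without any one of 5 of the 6 libraries (each but D30 replicate 3), with values of -0.24 to -0.14. Another gene on the same strand overlaps 79.7% of the ASNS exons, so its counts are uncertain.

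GDF15, a secreted stress factor, rose most of all members. It was at 6.95, 6.38, 6.06 and 3.91 CPM in the untreated SK-N-AS libraries, 36.1, 32.02, 59.1 and 58.4 in S1D4, 205, 205, 219.9 and 2054 in S2D4 and 644, 974, 1007 and 619.7 in S2D30. Every treated library was above every untreated one, and replicate 4 of S2D4 was 10.0 times the median of the other 3. Relative to untreated cells, the log2 fold changes were 2.97 (SE 0.64, adjusted p = 0.00206), 6.81 (SE 0.63, adjusted p = 9.74e-07) and 7.08 (SE 0.63, adjusted p = 4.36e-07). Without replicate 4 the S2D4 rise was 5.14 (adjusted p = 5.27e-11) and the step from S1D4 was 2.17 in place of 3.84. The step from S2D4 to S2D30 was 0.28 (SE 0.59, adjusted p = 0.722) with it and 1.94 (adjusted p = 3.34e-06) without it. GIMEN went from 63.96, 71.7 and 68.7 to 2242, 1639 and 1506 CPM, 4.69 (SE 0.13, adjusted p = 2.36e-10), and the SK-N-AS change was larger by 2.37 (SE 0.29, adjusted p = 3.91e-06).

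FGF21, the other hormone of the list, had at most 4 counts in any library, and 0 in all S1D4, S2D30 and GIMEN libraries, so no change was detectable at this depth. VLDLR, a lipoprotein receptor, was at 0.393 to 0.885 CPM in untreated SK-N-AS and 43.5 to 43.8 CPM in untreated GIMEN. It passed the test in no comparison, and its changes were 0.11 (SE 0.38) at S2D30 and 0.21 (SE 0.10) in GIMEN.

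**Figure D2:**
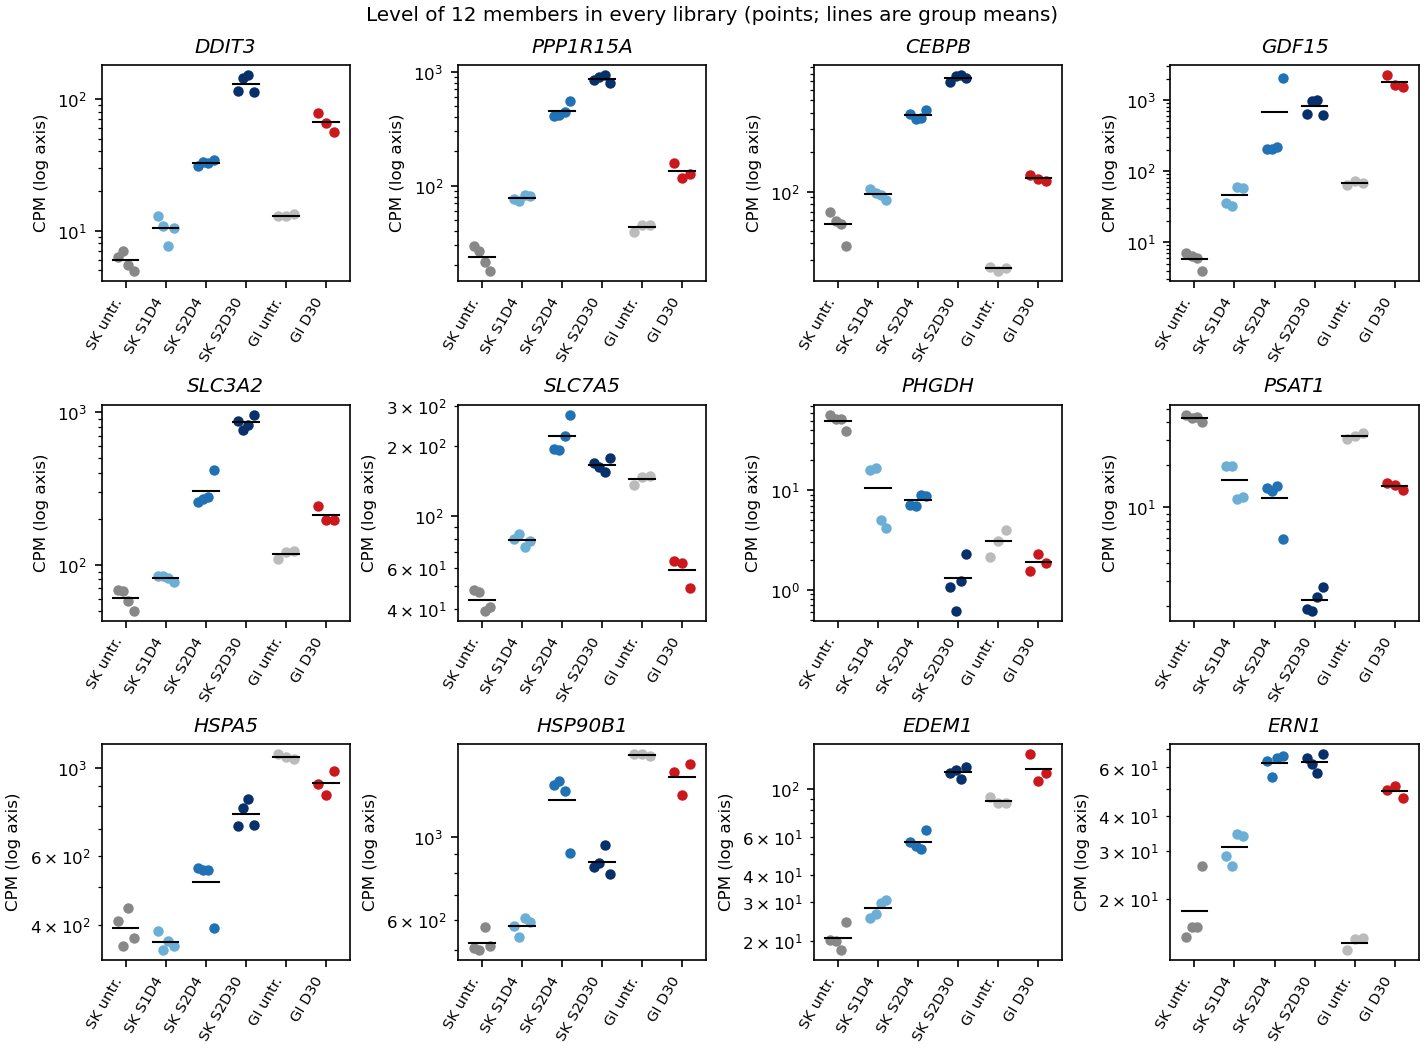
CPM of 12 members in each library (points) with group means (lines), on log axes, for SK-N-AS (SK) and GIMEN (GI). DDIT3, PPP1R15A, CEBPB and SLC3A2 climb from group to group in SK-N-AS, PHGDH and PSAT1 descend, and SLC7A5 moves up in SK-N-AS and down in GIMEN; the one S2D4 point far above the others in GDF15 is replicate 4, at 2054 CPM.

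Further genes of the ATF4 branch came from lists of other known targets. At S2D4, 14 of 23 tested targets rose and 4 fell, at S2D30 12 rose and 7 fell, and in GIMEN 11 of 22 rose and 6 fell. The largest rises were STC2, a secreted glycoprotein, at S2D4 (3.22, SE 0.16, adjusted p = 1.11e-10) and SLC7A11, the cystine transporter, at S2D30 (3.47, SE 0.23, adjusted p = 1.87e-09). SLC7A11 fell in GIMEN, by -2.45 (SE 0.12, adjusted p = 9.08e-09). SLC6A9, a glycine transporter, changed by -3.60 (SE 0.36, adjusted p = 3.58e-07) at S2D4 and by 2.19 (SE 0.20, adjusted p = 1.36e-06) in GIMEN. These SLC6A9 values come from unlike times, 4 and 30 days. JDP2, a transcription factor of the AP-1 family, fell at S2D30 by -3.95 (SE 0.30, adjusted p = 5.65e-09). Of 12 cytosolic tRNA synthetases, which ATF4 also controls, 4 rose and 3 fell at S2D4, 3 and 4 at S2D30 and 3 and 5 in GIMEN, where 30.9% and 32.2%, 33.8% and 36.5%, and 35.5% and 36% of all genes did. WARS rose by 0.68 (SE 0.12, adjusted p = 0.000107) and MARS fell by 0.59 (SE 0.08, adjusted p = 5.97e-06) at S2D4. AARS rose at S2D30 (1.08, SE 0.08, adjusted p = 2.37e-09) and in GIMEN (0.72, SE 0.06, adjusted p = 7.96e-07), while MARS (-1.16, SE 0.08, adjusted p = 1.13e-09) and GARS (-0.46, SE 0.06, adjusted p = 1.95e-05) fell there in turn.

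Besides PERK, 3 other kinases phosphorylate eIF2α, and none of them rose against untreated cells. At S1D4, 17.6% of all tested genes rose and 22.4% fell, and at S2D4 30.9% and 32.2%. The shares were 33.8% and 36.5% at S2D30, and 35.5% and 36% in GIMEN D30. EIF2AK1, the heme-regulated kinase, fell in all 4 treated groups, with changes of -0.25 (SE 0.09, adjusted p = 0.0337) at S1D4, -0.79 (SE 0.09, adjusted p = 1.32e-06) at S2D4, -0.90 (SE 0.09, adjusted p = 1.62e-07) at S2D30 and -0.39 (SE 0.06, adjusted p = 9.15e-05) in GIMEN. EIF2AK4, the GCN2 sensor of uncharged tRNA, fell at S1D4, with -0.27 (SE 0.09, adjusted p = 0.0304), and in GIMEN, with -0.85 (SE 0.06, adjusted p = 1.79e-07). The S1D4 calls were fragile: EIF2AK1 lost its call without untreated replicate 1, 2 or 3 or S1D4 replicate 3 or 4 (-0.26 to -0.19), and EIF2AK4 without untreated replicate 1 or 4 or S1D4 replicate 1 or 2 (-0.26 to -0.18). Both also lost it with either other scaling, without the filter and with the compared groups alone (-0.25 to -0.22). EIF2AK2, the kinase activated by double-stranded RNA, fell in GIMEN by 0.26 (SE 0.06, adjusted p = 0.0023), and its S2D4 fall was -0.29 (SE 0.12, adjusted p = 0.0466). That call was lost without untreated replicate 1, 2 or 4 or S2D4 replicate 3 or 4, with EIF2AK2 at -0.29 to -0.17. DESeq2 as the test, its size factors and a fit without the filter also took the call. So did the replicate number as a block and the compared groups alone (EIF2AK2 at -0.29 to -0.26 over these).

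In the ER branch, the 3 sensors rose in each treated group against untreated cells. Of all tested genes, 17.6% rose at S1D4, 30.9% at S2D4, 33.8% at S2D30 and 35.5% in GIMEN D30. ERN1, which encodes IRE1, was at 14.6, 15.9, 15.9 and 26.4 CPM without treatment in SK-N-AS, 28.7, 26.4, 34.6 and 34.01 in S1D4, 63.2, 55.5, 64.9 and 65.8 in S2D4 and 64.7, 61.9, 57.5 and 67.1 in S2D30. Untreated replicate 4 was high and close to S1D4, yet no treated library fell into the untreated range. On the log2 scale the differences from untreated cells were 0.74 (SE 0.15, adjusted p = 0.000893), 1.74 (SE 0.15, adjusted p = 4.37e-08) and 1.75 (SE 0.15, adjusted p = 2.20e-08). GIMEN rose from 13.1, 14.3 and 14.5 to 49.7, 51.4 and 46.4 CPM, 1.79 (SE 0.08, adjusted p = 4.79e-09), and the line difference was -0.05 (SE 0.21).

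EIF2AK3, which encodes PERK, rose early and then came back down. It was at 23.9, 23.1, 23.3 and 29.6 CPM before treatment in SK-N-AS, 59.02, 58.4, 61.1 and 65.9 in S1D4, 63.7, 63.3, 66.98 and 43.5 in S2D4 and 34.7, 37.2, 35.7 and 36.9 in S2D30. The S2D30 libraries were below all S1D4 and S2D4 libraries and above all untreated ones. In the order of these groups, the log2 fold changes were 1.27 (SE 0.12, adjusted p = 7.23e-07), 1.21 (SE 0.12, adjusted p = 1.65e-07) and 0.50 (SE 0.12, adjusted p = 0.0012), and the step from S2D4 to S2D30 was -0.72 (SE 0.12, adjusted p = 7.98e-05). GIMEN rose from 19.2, 18.1 and 18.1 to 37.2, 37.7 and 41.9 CPM, 1.05 (SE 0.08, adjusted p = 4.48e-07), more than SK-N-AS at 30 days (line difference -0.57, SE 0.13, adjusted p = 0.00167). Genes on the other strand overlap 16.9% of the EIF2AK3 exons. ATF6 had a narrow range, 52.3 to 61.4 CPM untreated, 74.3 to 81.8 in S1D4, 101 to 114 in S2D4 and 90.7 to 101 in S2D30, and 73.9 to 83.5 against 122 to 125 in GIMEN. It rose by 0.89 (SE 0.07, adjusted p = 1.36e-08) at S2D4 and 0.62 (SE 0.06, adjusted p = 2.90e-06) in GIMEN.

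XBP1, the transcription factor downstream of IRE1, rose in both lines. Its levels were 80.4, 65.9, 75.8 and 66.4 CPM in the untreated SK-N-AS libraries, 109.8, 105, 90.2 and 92.8 in S1D4, 137, 136, 138 and 168 in S2D4 and 154, 166, 180.2 and 154 in S2D30. All treated libraries were above all untreated ones. The log2 fold changes were 0.44 (SE 0.10, adjusted p = 0.00223), 0.97 (SE 0.10, adjusted p = 3.35e-07) and 1.14 (SE 0.10, adjusted p = 2.77e-08). GIMEN rose from 52.5, 56.7 and 51.3 to 110.4, 130.0 and 149 CPM, 1.25 (SE 0.10, adjusted p = 5.62e-07), and the lines differed by -0.13 (SE 0.16), which did not pass.

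Of the 10 chaperones, co-chaperones and folding factors, 8 rose and 0 fell at S2D4, 4 rose and 1 fell at S2D30, and 2 rose and 7 fell in GIMEN D30. Of all tested genes, 30.9% rose and 32.2% fell at S2D4, 33.8% and 36.5% at S2D30, and 35.5% and 36% in GIMEN D30. HSPA5, which encodes BiP, the main ER chaperone, was at 409, 356, 442 and 372 CPM without treatment in SK-N-AS, 387, 346, 366 and 356 in S1D4, 557, 553, 553 and 393 in S2D4 and 714, 792, 833 and 715 in S2D30. The S2D30 libraries were above all others, and in S2D4 only replicate 4 fell within the untreated range. Relative to untreated cells, the log2 fold changes were -0.15 (SE 0.11, adjusted p = 0.323), 0.35 (SE 0.11, adjusted p = 0.0126) and 0.91 (SE 0.11, adjusted p = 1.56e-06). Without replicate 4 the S2D4 rise was 0.46 (adjusted p = 0.000169); with the 8 libraries of the compared groups alone it was 0.36 (adjusted p = 0.0529). GIMEN went from 1082, 1065 and 1053 to 909, 853 and 982 CPM, -0.25 (SE 0.07, adjusted p = 0.00794), and the lines differed by 1.15 (SE 0.14, adjusted p = 3.80e-06).

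HSP90B1, the ER member of the HSP90 family, peaked earlier than HSPA5. It was at 504, 498, 573 and 510.2 CPM before treatment in SK-N-AS, 576, 542, 607 and 593 in S1D4, 1371, 1406, 1326 and 904 in S2D4 and 829, 851, 952 and 796 in S2D30. The S2D4 libraries other than replicate 4 were above all others. On the log2 scale the differences from untreated cells were 0.13 (SE 0.12, adjusted p = 0.425), 1.23 (SE 0.12, adjusted p = 1.78e-07) and 0.68 (SE 0.12, adjusted p = 7.59e-05). From S2D4 to S2D30 it fell by 0.55 (SE 0.12, adjusted p = 0.00102), where HSPA5 rose by 0.57 (SE 0.11, adjusted p = 0.000437). In GIMEN the change was -0.22 (SE 0.08, adjusted p = 0.0264), lost without any one of 4 libraries (each untreated replicate, or D30 replicate 2), with values of -0.23 to -0.14.

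The BiP co-chaperones DNAJB9 and DNAJC3 rose in both lines. DNAJB9 was at 13.4, 11.8, 16.2 and 13.7 CPM in the untreated SK-N-AS libraries, 24.1, 25.003, 29.5 and 31.1 in S1D4, 31.9, 32.998, 30.3 and 38.8 in S2D4 and 44.9, 46.6, 47.4 and 46.1 in S2D30. All treated libraries were above the untreated ones, with changes of 0.97 (SE 0.11, adjusted p = 5.72e-06), 1.25 (SE 0.11, adjusted p = 6.82e-08) and 1.71 (SE 0.11, adjusted p = 8.18e-10). In GIMEN it rose from 12.8, 13.2 and 13.5 to 70.3, 68.2 and 84.5 CPM, 2.47 (SE 0.10, adjusted p = 1.61e-09), more than in SK-N-AS (line difference -0.77, SE 0.15, adjusted p = 0.000406). DNAJC3, which also binds PERK, went from 17.8 to 22.9 CPM to 49.03 to 54.1 in S2D4 and 71.8 to 73.2 in S2D30, 1.88 (SE 0.09, adjusted p = 2.00e-11). Its GIMEN rise, from 39.2 to 44.3 to 102 to 107 CPM, was 1.29 (SE 0.06, adjusted p = 1.10e-08).

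SDF2L1, PDIA6, CRELD2, MANF and HYOU1 reached their highest SK-N-AS group mean at S2D4. SDF2L1, part of a chaperone complex, was at 48.8, 44.2, 51.3 and 37.9 CPM untreated, 34.8, 31.3, 32.9 and 32.8 in S1D4, 109, 125, 121 and 56.9 in S2D4 and 55.9, 60.8, 66.01 and 57.9 in S2D30. It rose by 1.14 (SE 0.18, adjusted p = 3.80e-05) at S2D4 and fell in GIMEN, with -0.78 (SE 0.13, adjusted p = 0.000164), and the low S2D4 library is replicate 4, without which the S2D4 rise was 1.34. The disulfide isomerase PDIA6 was at 344, 305, 358 and 322 CPM untreated and 552, 582, 556 and 427 in S2D4, 0.64 (SE 0.10, adjusted p = 2.57e-05). CRELD2, an ER-resident protein of secretory stress, was at 24.3, 21.99, 24.003 and 18.99 CPM untreated and 35.3, 40.3, 38.6 and 26.5 in S2D4, 0.62 (SE 0.12, adjusted p = 0.000305). At S2D30 both overlapped the untreated range, at 354, 377, 397 and 343 and 22.5, 22.3, 25.1 and 22.1 CPM, and did not pass. In GIMEN, PDIA6 changed by -0.25 (SE 0.07, adjusted p = 0.0102) and CRELD2 by -0.96 (SE 0.07, adjusted p = 1.68e-07). Genes on the other strand overlap 29.7% of PDIA6 and 14.1% of HYOU1 exons.

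MANF, a secreted factor kept in the ER, was at 29.3, 27.4, 32.4 and 26.2 CPM without treatment in SK-N-AS, 21.1, 21.3, 17.1 and 16.9 in S1D4, 32.2, 38.05, 38.2 and 14.3 in S2D4 and 23.5, 28.6, 31.04 and 21.6 in S2D30. Replicate 4 of S2D4 was the lowest of the 16 libraries and of the other 3, 1 reached into the untreated range. The S2D4 change was 0.05 (SE 0.22) with replicate 4 and 0.29 (adjusted p = 0.0604) without it. GIMEN fell from 65.97, 69.1 and 70.6 to 38.6, 33.9 and 29.9 CPM, -1.03 (SE 0.08, adjusted p = 7.02e-07). PDIA4, another disulfide isomerase, fell most in GIMEN, from 443, 445 and 438 to 173, 172 and 161 CPM, -1.42 (SE 0.06, adjusted p = 2.42e-09), and was also lower at S2D30, -0.61 (SE 0.12, adjusted p = 0.000231). HYOU1, a nucleotide exchange factor of BiP, stayed between 93.5 and 138 CPM in all 22 libraries and, against untreated cells, passed only at S2D4, with 0.29 (SE 0.06, adjusted p = 0.000885).

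After stage 1, SDF2L1, PDIA4, PDIA6 and MANF were the 4 members of the ER branch that fell, with log2 fold changes of -0.50 (SE 0.18), -0.54 (SE 0.12), -0.28 (SE 0.10) and -0.62 (SE 0.23). PDIA4 kept its call without any single library. The other 3 lost theirs in several cases: SDF2L1 without any library but untreated replicate 4 (-0.52 to -0.43), PDIA6 without untreated replicate 1 or 3 or S1D4 replicate 3 or 4 (-0.26 to -0.24), and MANF without untreated replicate 1, 2 or 3 or S1D4 replicate 3 or 4 (-0.64 to -0.56).

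The 3 degradation genes rose at S2D4, at S2D30 and in GIMEN, where 30.9%, 33.8% and 35.5% of all tested genes rose. EDEM1 selects misfolded glycoproteins for removal, and SEL1L and HERPUD1 belong to the complex that exports them. EDEM1 was at 20.1, 19.9, 18.04 and 24.3 CPM before treatment in SK-N-AS, 25.5, 26.6, 29.7 and 30.7 in S1D4, 57.1, 54.4, 52.7 and 64.6 in S2D4 and 118, 122, 112 and 127 in S2D30. The groups rose in order without overlap, by 0.42 (SE 0.10, adjusted p = 0.00217), 1.44 (SE 0.10, adjusted p = 2.18e-09) and 2.50 (SE 0.09, adjusted p = 2.10e-12) against untreated cells. In GIMEN it rose from 91.5, 86.3 and 86.3 to 145, 109 and 119 CPM, 0.47 (SE 0.09, adjusted p = 0.000691), less than in SK-N-AS by 2.01 (SE 0.14, adjusted p = 7.74e-09). This was the largest line difference in the ER branch.

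HERPUD1 went from 22.9 to 30.8 CPM untreated to 40.7 to 53.2 in S2D4 and 53.5 to 59.7 in S2D30, 1.07 (SE 0.10, adjusted p = 8.16e-08), and from 40.1 to 47.1 to 68.2 to 75.3 in GIMEN, 0.70 (SE 0.07, adjusted p = 5.04e-06). SEL1L went from 52.6 to 83.2 CPM to 114 to 126 in S2D30, 0.95 (SE 0.12, adjusted p = 3.80e-06), and from 204 to 208 to 299 to 327 in GIMEN, 0.59 (SE 0.06, adjusted p = 4.04e-06). Its S1D4 value of 0.36 (SE 0.12, adjusted p = 0.0314) came from overlapping groups and was not called without untreated replicate 1, 2 or 3 or S1D4 replicate 3 or 4 (0.29 to 0.34).

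Of 30 further ER genes from a list of chaperones, translocon subunits and degradation factors, 22 rose and 2 fell at S2D4. At S2D30, 17 rose and 6 fell, and in GIMEN 15 of 29 tested rose and 8 fell. The shares of all tested genes that rose and fell were 30.9% and 32.2% at S2D4, 33.8% and 36.5% at S2D30, and 35.5% and 36% in GIMEN. EDEM3, a mannosidase of the degradation path, rose most at S2D4 (1.81, SE 0.15, adjusted p = 3.79e-08), where PDIA5 fell by 0.44 (SE 0.18, adjusted p = 0.0406). The PDIA5 groups overlapped, and the call was lost without untreated replicate 1, 2 or 3 (-0.44 to -0.36) or S2D4 replicate 4 (-0.26, adjusted p = 0.0917). ERO1B, an ER oxidase, rose most at S2D30 (2.07, SE 0.11, adjusted p = 1.41e-10) and in GIMEN (2.68, SE 0.22, adjusted p = 4.52e-07). UGGT1, the folding sensor of glycoproteins, fell at S2D30 (-0.77, SE 0.12, adjusted p = 2.79e-05), and SEC61B, a subunit of the translocon, in GIMEN (-1.14, SE 0.12, adjusted p = 4.66e-06).

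The step from S1D4 to S2D4 changed compounds and medium at once, and 16 of the 17 ER-branch members rose and 0 fell (median 0.53), against 28.3% and 26.8% of all genes. Of the ATF4 branch 10 rose and 2 fell (median 0.79). EIF2AK3 was the member of the ER branch that did not rise. Leaving out single libraries gave an ER count of 14 to 15. The calls lost were DNAJB9 (without S1D4 replicate 1 or 2 or S2D4 replicate 2 or 4, 0.20 to 0.29), MANF (without S1D4 replicate 3 or 4 or S2D4 replicate 2 or 3, 0.55 to 0.62) and SEL1L (without S1D4 replicate 2 or S2D4 replicate 1, 0.30 to 0.32). From S2D4 to S2D30, 5 ER-branch members rose and 7 fell (median -0.15) and 5 ATF4-branch members rose and 5 fell (median -0.11), against 24.4% and 26.9% of all genes. HSPA5, DNAJB9, DNAJC3, HERPUD1 and EDEM1 rose, and HSP90B1, SDF2L1, PDIA4, PDIA6, CRELD2, HYOU1 and EIF2AK3 fell. Without replicate 4 the ATF4-branch counts were 6 and 6, with GDF15 added at 1.94 and SHMT2 at -0.36 (adjusted p = 0.00945). The ER counts were then 6 and 8, with XBP1 added at 0.25 (adjusted p = 0.0317) and MANF at -0.47 (adjusted p = 0.00619). HERPUD1's rise of 0.30 (SE 0.10, adjusted p = 0.0199) was not called without S2D4 replicate 2 or 3 or S2D30 replicate 2 or 3 (0.25 to 0.28).

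Replicate 4 of S2D4 lay above the other 3 libraries in 10 ATF4-branch members and below them in 6, and above in 6 and below in 10 of the ER branch. Over 15611 tested genes it lay above the others in 42.3% and below them in 39.5%. GDF15 was highest relative to the others, at 10.0 times their median, and ATF4 was at 1.73 times. MANF stood at 0.375 times, PSAT1 at 0.432, SESN2 at 0.450 and SDF2L1 at 0.470. The direction was not common to a branch: HSPA5 and HSP90B1 were low in this library, and XBP1, HERPUD1 and EDEM1 were high.

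**Figure D3:**
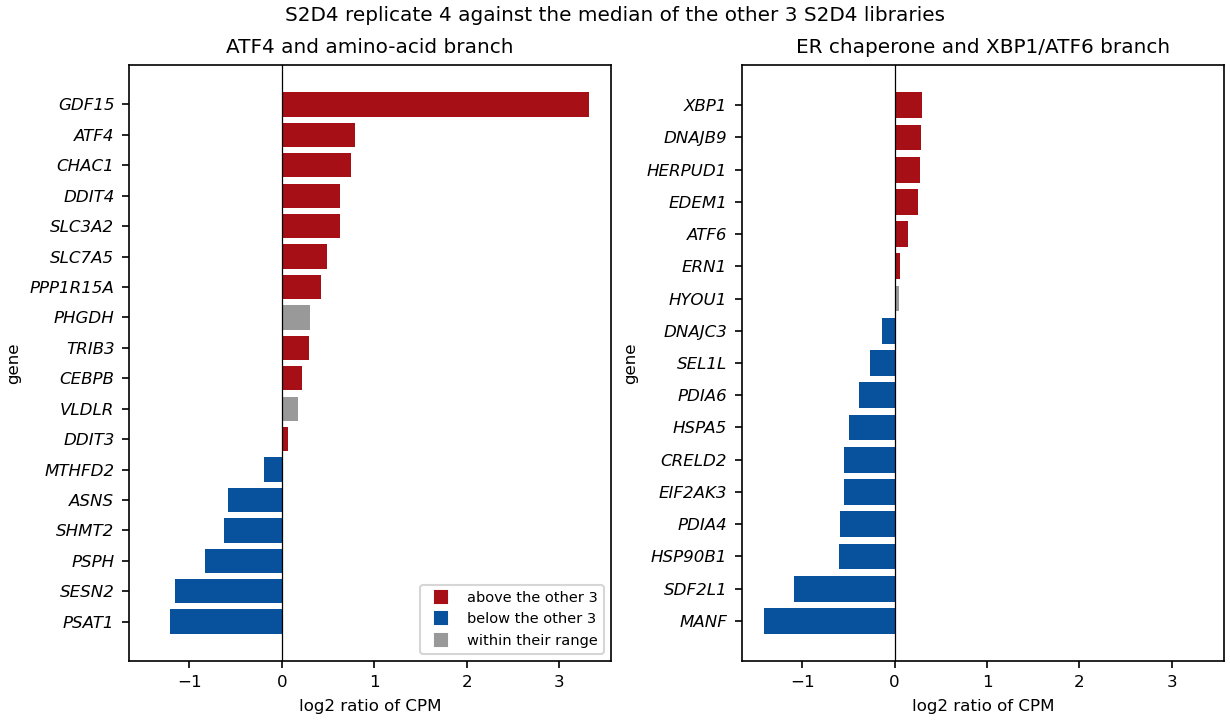
Log2 ratio of CPM in replicate 4 of S2D4 to the median of the other 3 S2D4 libraries, for the members above the count floor; red bars lie above the range of the other 3 libraries, blue bars below it and grey bars within it. GDF15 has the longest bar, and more ER-branch bars are blue (10) than red (6).

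The lines were set side by side at 30 days, where they share no libraries. Of the 18 ATF4-branch members, 7 rose in both lines, 6 fell in both, and SLC7A5 and DDIT4 rose in SK-N-AS and fell in GIMEN. Of the 17 in the ER branch, 9 rose in both, PDIA4 fell in both, and HSPA5 and HSP90B1 rose in SK-N-AS and fell in GIMEN. Among the members counted here, the GIMEN falls of ASNS, PHGDH and HSP90B1 were lost without single libraries. Of the 13088 genes tested in both lines, 20.1% rose in both, 22.2% fell in both and 5.29% rose in SK-N-AS and fell in GIMEN. The difference between the lines, as an interaction term, was called in 26 members: 8 ATF4-branch and 10 ER-branch members higher in SK-N-AS relative to GIMEN, and 6 and 2 lower (medians 0.04 and 0.35). Of all genes, 24.5% were called higher and 25.2% lower. Among the chaperones and folding factors 8 of 10 were higher, PDIA4 (0.79, SE 0.13, adjusted p = 9.71e-05), MANF (0.84, SE 0.17, adjusted p = 0.000737), SDF2L1 (1.13, SE 0.18, adjusted p = 6.71e-05) and CRELD2 (0.95, SE 0.14, adjusted p = 3.36e-05) among them. ERN1, ATF6, XBP1, SEL1L and HYOU1 had differences that did not pass, between -0.13 and 0.35. The calls of PDIA6 (0.35, SE 0.13, adjusted p = 0.0332) and HERPUD1 (0.35, SE 0.14, adjusted p = 0.0489) were lost in 7 and 10 of the 14 cases with 1 library left out, at 0.30 to 0.36 and 0.28 to 0.38. Since dose, medium and the first stage differ, line and treatment cannot be told apart here.

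**Figure D4:**
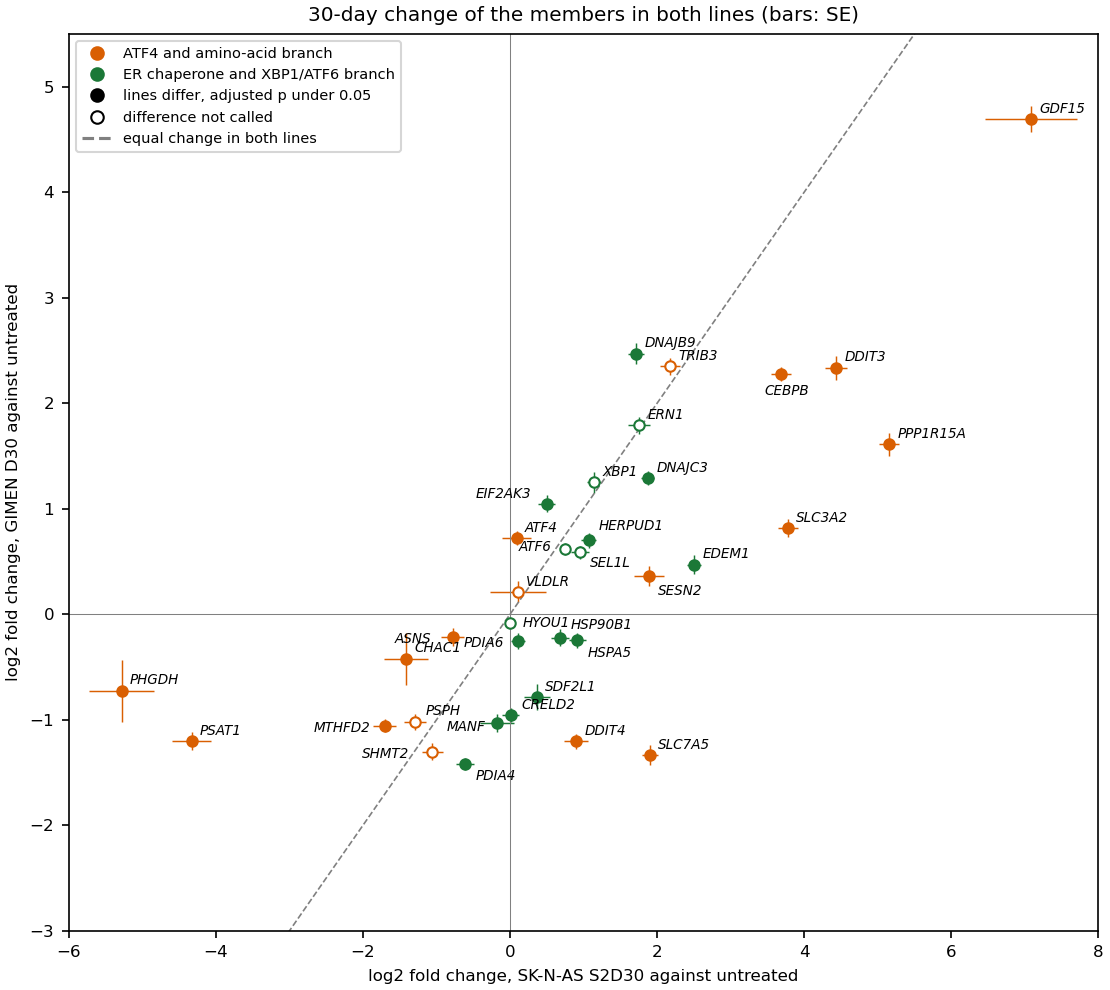
Log2 fold change at 30 days in SK-N-AS (horizontal) and GIMEN (vertical), 1 point per tested member with SE bars; filled points differ between the lines at an adjusted p under 0.05, and the dashed line marks equal change. TRIB3, ERN1 and XBP1 lie near the line, PHGDH and PSAT1 far to its left, and PPP1R15A, SLC3A2, SLC7A5 and EDEM1 to its right.

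Levels of different genes were compared per kilobase of the longest coding transcript (GENCODE v29), as group means of CPM. In untreated SK-N-AS the order was HSP90B1 (182.4), ATF4 (155.5), PDIA6 (123.8) and HSPA5 (101 CPM per kilobase), where the ATF4 libraries overlapped those of HSP90B1 and of PDIA6. In S2D30 it was GDF15 (675.9), SLC3A2 (385.2), CEBPB (379.7) and PPP1R15A (365.8), with HSP90B1 at 299.9. The S2D30 libraries of SLC3A2, CEBPB and PPP1R15A overlapped on this scale, so their order is not resolved. In GIMEN, HSP90B1 led untreated (578.8) and GDF15 led at D30 (1496). At the low end, PHGDH went from 19.33 to 0.5022 CPM per kilobase in SK-N-AS and stood at 1.189 in untreated GIMEN.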

How the data were processed

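Gene-level RNA counts from 22 libraries of SK-N-AS and GIMEN cells were read from 1 deposited table of raw counts, 1 column per sample; 0 columns of per-sample values were left unused. Per the labels' protocols, total RNA was treated with DNase and sequenced paired-end on an Illumina HiSeq X; how the authors aligned and counted the reads, with which build and with or without strand, is not given in the sources used here. The members and lists were chosen with earlier results of these data known.

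Counts were tested with edgeR 4.0.16 (quasi-likelihood F-test, TMM scaling, filterByExpr with a minimum count of 10 and total of 15) in R 4.3.3, with limma 3.58.1. The SK-N-AS comparisons came from 1 model of 16 libraries (15810 genes), GIMEN from 6 libraries (13517 genes), and the line difference from 14 libraries (16246 genes). P-values were adjusted over all tested genes by Benjamini-Hochberg at 0.05, the threshold for "rose" and "fell". SE came from the fitted model. CPM were scaled once by TMM over all 22 libraries. A member with at most 3 counts in every library of a group was treated as at the floor.

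From each further list, the called genes with the largest rise and largest fall at S2D4, S2D30 and GIMEN D30 were named, with the 3 other eIF2α kinases. The grouping of members by role was made for the description and carries no test. Transcript lengths and overlapping exons came from GENCODE v29, promoters from RefSeq (GRCh38.p14). 1 adrenergic marker of the list is not reported here. The test was checked on simulated counts. Alternatives were DESeq2 1.42.0 as the test, its size factors or upper-quartile factors in edgeR, no filter, other sets of libraries in the model, a replicate block, a term for replicates 3 and 4, and each library left out in turn. Replicate numbers did not pair the samples across all groups. Deviations of same-numbered libraries correlated at 0.27, 0.27, 0.04 and 0.29 between untreated and S1D4 cells, which thus matched in part by number. In the other pairs of groups the values were -0.10 to 0.10, and in no pair did all pass 0.1.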

Additional observations from a re-analysis of the deposited data

Results flagged for a closer look

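In each SK-N-AS group of 4, the highest or lowest library was compared with the rest. Each of the 36 members in each of the 4 groups made 1 set. In 18 of 144 sets a library stood farther from the rest than Dixon's 95% limit for 4 values. Chance alone gives about 1 in 20 for independent sets, but all members were read in the same libraries, so these sets are not independent. Replicate 4 of S2D4 was the outlying library in 12 of the 18. In CPM it was high in ATF4 (559), DDIT4 (115), SLC3A2 (415), GDF15 (2054) and XBP1 (168). It was low in PSAT1 (5.93), PSPH (7.39), HSPA5 (393), HSP90B1 (904), DNAJC3 (49.0), PDIA4 (149) and EIF2AK3 (43.5). Untreated replicate 4 was high in DNAJC3 (22.9), ERN1 (26.4) and EIF2AK3 (29.6), untreated replicate 3 in HSP90B1 (573), and S2D30 replicate 3 in PSPH (15.4) and CRELD2 (25.1).

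The 30-day change differed between the lines in 26 members by the interaction term. On the log2 scale, SK-N-AS minus GIMEN, the ATF4-branch differences were 3.52 for PPP1R15A, 3.22 for SLC7A5, 2.94 for SLC3A2, 2.37 for GDF15, 2.09 for DDIT4, 2.08 for DDIT3, 1.51 for SESN2 and 1.40 for CEBPB. They were negative for PHGDH (-4.57), PSAT1 (-3.14), CHAC1 (-1.01), MTHFD2 (-0.67), ATF4 (-0.65) and ASNS (-0.58). In the ER branch they were positive for EDEM1 (2.01), HSPA5 (1.15), SDF2L1 (1.13), CRELD2 (0.95), HSP90B1 (0.89), MANF (0.84), PDIA4 (0.79), DNAJC3 (0.57), HERPUD1 (0.35) and PDIA6 (0.35), and negative for DNAJB9 (-0.77) and EIF2AK3 (-0.57).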

How the results depend on the processing

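Of 245 member results, 196 kept their direction and their side of the threshold under every alternative run; 15 turned direction under at least one and none of these was called in edgeR as reported. The 4 ER-branch falls after stage 1 became 1 with upper-quartile factors, and 1 to 4 with single libraries left out. In GIMEN D30, upper-quartile factors took the calls of ASNS (-0.17, adjusted p = 0.108), PHGDH (-0.67, 0.0561) and HSP90B1 (-0.17, 0.0795). DESeq2 took those of ASNS (-0.23, adjusted p = 0.0504) and PHGDH (-0.74, 0.0758). With upper-quartile factors the changes were -0.00145 for MANF at S2D4, -0.00271 for CRELD2 at S2D30 and 0.0194 for DDIT4 from S2D4 to S2D30. HYOU1 at S2D30 was 0.0315 with DESeq2 size factors, 0.0162 without the filter, 0.0263 in DESeq2 and 0.0165 with the compared groups alone, and ERN1 from S2D4 to S2D30 was -0.00301 without the filter. With the replicate number as a block, MANF at S2D4 was -0.0106, CHAC1 at S2D4 lost its call (-0.75, adjusted p = 0.0503), HERPUD1 lost the line difference (adjusted p = 0.052), and SEL1L (0.37, adjusted p = 0.0489) and SDF2L1 at S2D30 (0.38, adjusted p = 0.0451) gained one. The numbers pair the samples at most in part. Between untreated and S1D4 cells 3 of 4 libraries correlated best with their own number, and in the other pairs 0 to 2 did. The term for replicates 3 and 4 changed no member's call in the comparison of S1D4 with untreated cells.

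Leaving out 1 library at a time turned these values, given from lowest to highest: at S2D4, MANF -0.0771 to 0.291, ASNS -0.193 to 0.00317, PDIA4 -0.127 to 0.0483 and EIF2AK4 -0.0982 to 0.0325; at S2D30, ATF4 -0.0167 to 0.186, VLDLR -0.0425 to 0.341, HYOU1 -0.0406 to 0.0324 and CRELD2 -0.0606 to 0.0801. From S1D4 to S2D4, VLDLR ran from -0.326 to 0.208 and EIF2AK3 from -0.117 to 0.0733. From S2D4 to S2D30, ATF4 ran from -0.241 to 0.0707, DDIT4 from -0.149 to 0.146, ERN1 from -0.0467 to 0.0485 and GDF15 from -0.0305 to 1.94. The line differences of ERN1 (-0.141 to 0.165) and VLDLR (-0.297 to 0.0507) also turned. The cause was not tested. Scaling moved the median gene by at most -0.096 (log2; upper-quartile factors, S1D4 to S2D4). Depth limited FGF21 and, in SK-N-AS, VLDLR.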
